A study of Homo sapiens with 6 samples.

Results

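The 10 long noncoding RNAs MALAT1, NEAT1, GAS5, H19, MEG3, TUG1, SNHG1, SNHG5, SNHG8 and KCNQ1OT1 were followed in HK-2 cells, an immortalized human proximal tubular cell line, after knockdown of the chromatin remodeler INO80. They were taken by symbol from a gene table of 57905 rows, and each symbol had 1 row. Of the 10, 7 had enough reads to enter the test, as did 15343 genes in all. The other 3, H19, MEG3 and KCNQ1OT1, had almost no reads in these poly(A)-selected libraries. The description of the 10 as abundant thus held for 7 of them. None of the 7 was called different between the groups with the treatment alone in the model. With the replicate number as a block, NEAT1, SNHG1 and SNHG8 rose by 0.21 to 0.22 on the log2 scale in edgeR, a fit in which 24.8% of all tested genes were called and 11.4% as higher. DESeq2 with the block called NEAT1 but neither SNHG1 nor SNHG8.

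The study compared 3 libraries of INO80 knockdown, made with a pool of siRNAs, with 3 libraries of cells given a non-targeting siRNA pool, both collected at 48 h. The control cells are labelled WT and the others knockdown, and both groups come from the same cell line and the same transfection procedure. Only 1 INO80 pool was used, so the knockdown itself and any other effect of that pool cannot be told apart. The labels do not say whether the 3 libraries of a group come from separate cultures, so p-values measure only the spread between these samples, which may be technical.

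Long noncoding RNAs carry no long conserved reading frame, and many of them are transcribed and processed much like mRNAs. MALAT1 lies in nuclear speckles, where splicing factors gather, and NEAT1 is the scaffold of paraspeckles, nuclear bodies built by RNA-binding proteins such as NONO and SFPQ. GAS5, SNHG1, SNHG5 and SNHG8 are host RNAs, whose introns release small nucleolar RNAs (snoRNAs) that guide the modification of ribosomal RNA, and their spliced exons are short-lived. H19, MEG3 and KCNQ1OT1 are imprinted RNAs expressed from 1 parental chromosome, and TUG1 is a widely expressed RNA linked to chromatin regulators.

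The promoters of the 4 snoRNA hosts are shown because SNHG1 and SNHG8 are in this class and because hosts often start within a pyrimidine tract. Each sequence runs from 250 bases before to 50 bases after the annotated start, from RefSeq on GRCh38.p14, 5′ to 3′ on the gene's strand. Capitals mark the CCAAT box, the GC box (GGGCGG), the E-box (CACGTG) and the TATA box (TATAAA) on either strand. They also mark a start tract of pyrimidines, taken as CTTTT or as CTTTC on the gene's strand from 20 bases before the start onwards.
GAS5 (chr1:173868996-173869295, minus strand): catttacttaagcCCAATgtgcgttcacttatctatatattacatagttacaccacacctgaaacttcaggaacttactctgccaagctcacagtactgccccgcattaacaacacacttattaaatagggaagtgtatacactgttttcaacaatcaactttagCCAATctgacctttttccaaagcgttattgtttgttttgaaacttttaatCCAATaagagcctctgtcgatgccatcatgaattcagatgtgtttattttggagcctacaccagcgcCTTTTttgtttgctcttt
SNHG1 (chr11:62855836-62856135, minus strand): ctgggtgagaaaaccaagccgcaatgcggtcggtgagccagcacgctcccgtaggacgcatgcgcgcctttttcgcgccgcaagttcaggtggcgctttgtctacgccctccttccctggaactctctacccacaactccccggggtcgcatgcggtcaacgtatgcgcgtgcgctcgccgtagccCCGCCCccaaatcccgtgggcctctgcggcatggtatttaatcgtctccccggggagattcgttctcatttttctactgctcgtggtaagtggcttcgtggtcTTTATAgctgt
SNHG5 (chr6:85678684-85678983, minus strand): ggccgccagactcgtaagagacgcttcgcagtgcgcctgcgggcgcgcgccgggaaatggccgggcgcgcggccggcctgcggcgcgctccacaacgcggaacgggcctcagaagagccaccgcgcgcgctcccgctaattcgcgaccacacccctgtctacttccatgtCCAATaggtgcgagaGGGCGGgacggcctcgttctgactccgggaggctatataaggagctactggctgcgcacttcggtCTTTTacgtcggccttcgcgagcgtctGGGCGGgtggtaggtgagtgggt
SNHG8 (chr4:118278512-118278811, plus strand): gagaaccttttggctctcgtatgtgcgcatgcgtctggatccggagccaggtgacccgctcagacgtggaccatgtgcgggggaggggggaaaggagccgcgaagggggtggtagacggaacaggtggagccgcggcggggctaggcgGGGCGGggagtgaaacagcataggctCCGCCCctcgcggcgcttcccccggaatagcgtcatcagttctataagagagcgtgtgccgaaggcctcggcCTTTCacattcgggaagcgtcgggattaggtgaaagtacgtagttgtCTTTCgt

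The GAS5 window held 3 CCAAT matches and 1 CTTTT, and its GC content was 37.7%. SNHG1 held 1 GGGCGG and 1 TATAAA, the latter on the opposite strand and after the start. SNHG5 held 1 CCAAT, 2 GGGCGG and 1 CTTTT, and SNHG8 held 2 GGGCGG and 2 CTTTC. A start tract was thus matched in 3 of the 4 windows, all but that of SNHG1. The GAS5 match lay downstream of the annotated start, whereas that of SNHG5 and 1 of the 2 of SNHG8 lay at it. Among 35116 promoter windows of this length, CCAAT occurred in 34.6%, GGGCGG in 45.0%, CACGTG in 7.26%, TATAAA in 11.5% and a start tract in 15.4%. These matches are letters in a window and not measured sites. Of the other members, MALAT1, TUG1, H19 and MEG3 also had an entry, while NEAT1 and KCNQ1OT1 are named only.

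Reads counted on genes ranged from 16829273 to 20311588 per control library and from 20678008 to 23784599 per INO80 siRNA library. INO80 fell from 46.3, 49.3 and 54.0 CPM (read counts scaled to library size) with control siRNA to 13.8, 12.0 and 14.2 CPM with INO80 siRNA, a log2 change of -1.90 ± 0.0956 (SE) with an adjusted p of 0.000161 in edgeR's quasi-likelihood test. The epithelial markers KRT8, KRT18, KRT19 and EPCAM were high, with 89.8, 44.02, 208 and 41.2 FPKM (fragments scaled to exon length and library size, here a mean of 6 libraries). Of the same list KRT7 was at 7.12 FPKM, and CDH1, which encodes E-cadherin, had 0 to 10 reads per library. EPCAM, an epithelial adhesion molecule, was at 115 ± 6.96 CPM (SD) with control siRNA and 92.8 ± 9.08 CPM with INO80 siRNA, without overlap, with an adjusted p of 0.114 with the treatment alone and 3.71e-06 with the block in edgeR. With the block, which called 24.8% of all tested genes, KRT18 was also called as higher and KRT19 as lower. Of the markers of the proximal tubule, PAX8 and GGT1 were at 39.5 and 39.1 FPKM, whereas LRP2, CUBN, AQP1, SLC22A6 and HNF4A had between 0 and 5 reads in every library. LUM, a fibroblast gene, was at 66.7 FPKM and highest in replicate 1 of both groups, and the 6 fibroblast markers summed to 184 to 416 CPM in the control libraries and 189 to 385 CPM in the others. Most of this sum was LUM, at 136 to 327 CPM in the controls. COL1A1 had 770 to 1293 reads per library and DCN 124 to 958, and DCN was also highest in replicate 1 of both groups. COL1A2 had 0 to 2 reads per library, PDGFRA 0 to 1 and PDGFRB 6 to 24. With the block COL1A1 and DCN were called as higher and LUM as lower. The leukocyte genes PTPRC and CD3E had no read, CD14 had at most 16, and no endothelial marker had more than 2. In such bulk samples, fewer cells of a type and less RNA per cell cannot be told apart.

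Together the 10 RNAs took between 0.0782% and 0.110% of the reads of a library. Levels of different genes were compared as FPKM, which divides by length. GAS5 was at 47.5 FPKM and MALAT1 at 44.9 FPKM, ranks 5 and 8 among 12864 genes, of which 5959 had a read. These were the genes typed as long noncoding in GENCODE release 44, with TUG1 added. Other classes of noncoding RNA and gene IDs without a type were not ranked. Of these, RN7SL2 at 53.4 FPKM and RN7SL1 at 49.7 FPKM lay above GAS5. SNHG8 followed at 28.6 FPKM (rank 12), TUG1 at 18.6 (rank 17), SNHG1 at 15.5 (rank 23), NEAT1 at 9.01 (rank 41) and SNHG5 at 8.55 (rank 48). GENCODE release 44 types TUG1 as protein coding, and it was ranked with the long noncoding genes here. GAS5 and MALAT1 overlapped in the control libraries, at 39.5 to 49.9 and 34.96 to 49.98 FPKM. The ranges of NEAT1 and SNHG5 overlapped as well, at 6.15 to 10.6 and 7.60 to 8.85 FPKM, so neither pair differed beyond its spread. By reads alone, without division by length, MALAT1 was second of the ranked genes and NEAT1 followed it directly.

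**Figure D1:**
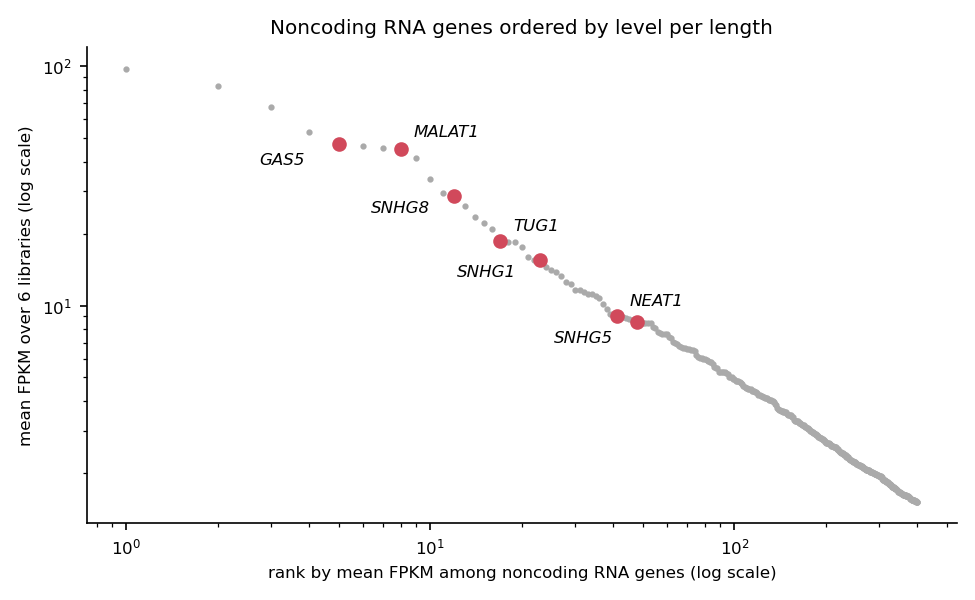
Mean FPKM over 6 libraries (log scale) against the rank of each long noncoding RNA gene by that mean (log scale). The 400 highest ranked genes are shown, with the 7 detected members in red. GAS5 at 47.5 FPKM stands highest among them at rank 5, and SNHG5 at 8.55 FPKM lowest at rank 48.

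The order of levels depends on the length used. The table divides by the union of all annotated exons, 3631 bases for GAS5, whereas its canonical GENCODE transcript holds 768 bases. By the canonical length, GAS5 came to 224 FPKM and SNHG1 to 50.5 FPKM, and SNHG8 came to 4.28 FPKM, because its canonical transcript of 6166 bases is longer than the 923 bases of the table. MALAT1, NEAT1 and TUG1 moved little, to 37.5, 9.02 and 16.9 FPKM. For NEAT1 the canonical transcript of 22743 bases is nearly the 22767 bases of the table. Its value therefore does not show what a shorter transcript would give. Which transcripts of each gene were present was not measured, and poly(A) selection can miss transcripts without a poly(A) tail.

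MALAT1 (ENSG00000251562, chr11:65265233-65273940 in GRCh37, plus strand) had 447, 303 and 391 CPM in control replicates 1, 2 and 3. Under INO80 siRNA it had 407, 375 and 430 CPM. Control replicate 2 was the lowest library and control replicate 1 the highest, and the INO80 siRNA values lay between them. The log2 fold change was 0.09 ± 0.128 (SE, n = 3 per group), with an adjusted p of 0.791 in edgeR and 0.8 in an exact permutation test, two-sided, which cannot go below 0.1 for 3 libraries against 3.

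NEAT1 (ENSG00000245532, chr11:65190245-65213011, plus strand), the paraspeckle scaffold on the same chromosome arm, had 248, 139 and 190 CPM with control siRNA. It had 261, 175 and 223 CPM with INO80 siRNA. In both groups replicate 1 was highest and replicate 2 lowest, so the groups overlapped although each INO80 siRNA library lay above the control library of its number. Its log2 fold change was 0.19 ± 0.205 (SE), with an adjusted p of 0.702 in edgeR and an exact permutation p of 0.6. NEAT1 also spread most within the control group, where its highest library was 1.78 times its lowest.

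TUG1 (ENSG00000253352, chr22:31366663-31375381, plus strand) had 138, 110 and 124 CPM with control siRNA and 135, 122.6 and 130 CPM with INO80 siRNA. The INO80 siRNA libraries lay within the span of the controls. The log2 fold change was 0.06 ± 0.087 (SE), with an adjusted p of 0.772 in edgeR and an exact permutation p of 0.7.

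**Figure D2:**
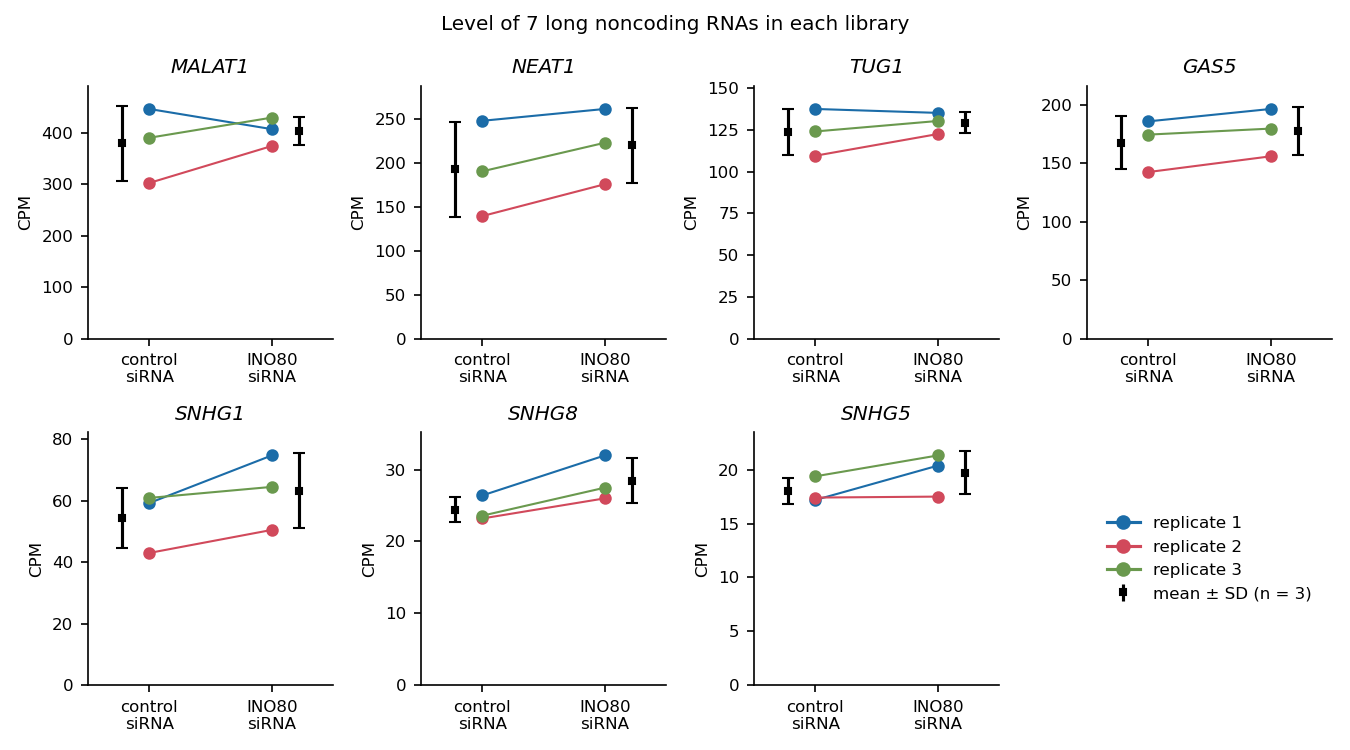
CPM of the 7 detected RNAs in each library, 1 panel per RNA, with the axis starting at 0. Coloured lines join libraries of the same replicate number, and black squares give the mean ± SD of 3 libraries. Replicate 2 (red) is lowest in both groups for all but SNHG5, and the groups overlap for each RNA.

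GAS5 (ENSG00000234741, chr1:173833038-173838020, minus strand), a host of many box C/D snoRNAs, had 186, 143 and 175 CPM with control siRNA. It had 197, 156 and 180 CPM with INO80 siRNA. Each INO80 siRNA library was above the control library of its number by 0.04 to 0.13 on the log2 scale, less than the spread between replicates. The fitted log2 fold change was 0.08 ± 0.114 (SE), with an adjusted p of 0.782 in edgeR and an exact permutation p of 0.6. SNORD78, a snoRNA gene inside GAS5, had 12 to 29 reads per library in these poly(A)-selected libraries.

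SNHG1 (ENSG00000255717, chr11:62619460-62623386, minus strand) had 59.2, 43.0 and 60.9 CPM with control siRNA and 74.7, 50.5 and 64.5 CPM with INO80 siRNA. INO80 siRNA replicate 2 was below control replicates 1 and 3. The log2 fold change was 0.22 ± 0.166 (SE), with an adjusted p of 0.575 in edgeR and an exact permutation p of 0.4.

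SNHG8 (ENSG00000269893, chr4:119199864-119200978, plus strand) had 26.4, 23.2 and 23.6 CPM with control siRNA and 31.98, 26.0 and 27.5 CPM with INO80 siRNA. The groups nearly separated, since INO80 siRNA replicate 2 alone lay below control replicate 1. SNHG8 had the smallest p of the 7 with the treatment alone, a log2 fold change of 0.22 ± 0.101 (SE) with an unadjusted p of 0.0561 and an adjusted p of 0.322 in edgeR, and an exact permutation p of 0.2.

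SNHG5 (ENSG00000203875, chr6:86370710-86388451, minus strand) had 17.2, 17.4 and 19.4 CPM with control siRNA and 20.4, 17.5 and 21.3 CPM with INO80 siRNA. It was the lowest of the 7 in reads and the member whose libraries followed another order, with control replicate 1 lowest. The log2 fold change was 0.13 ± 0.106 (SE), with an adjusted p of 0.597 in edgeR and an exact permutation p of 0.2.

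The imprinted RNAs were near 0. H19 had 0, 4 and 4 reads under control siRNA and 1, 1 and 0 under INO80 siRNA, 10 reads in all, and MEG3 had 1 read, in control replicate 3. KCNQ1OT1 had no read in 6 libraries over an exonic length of 91667 bases. A count of 0 allows up to 3 reads, here 0.000263 FPKM over all libraries together, and this limit covers counting error only. KCNQ1, the protein-coding gene that overlaps KCNQ1OT1 on the other strand, had 0 to 30 reads per library, and whether the counting used the strand is not given in the sources used here. None of the 3 entered the test, so no fold change is given for them. Around MEG3 at 14q32 none of 6 imprinted neighbours entered the test, and no library had more than 2 reads on any of them. At 11p15, 9 of 14 listed genes near H19 and KCNQ1OT1 were tested. With the treatment alone 0 were called, against 1.75% of all tested genes. With the block 1 was called as higher and 1 as lower, where 24.8% of all tested genes were called. CD81 was the higher gene (blocked log2 fold change 0.15, adjusted p 0.0024) and PHLDA2, a placental growth regulator, the lower (-0.26, adjusted p 0.0061) in edgeR.

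With the treatment alone, 0 of the 7 tested members were called at an adjusted p under 0.05 in edgeR, 0 had an unadjusted p under 0.05, and limma on log2(FPKM + 0.1) gave 1 with an unadjusted p under 0.05, SNHG8, and DESeq2 0. Across all tested genes 1.75% were called in either direction and 0.261% as higher. All 7 means were higher under INO80 siRNA, with a median log2 fold change of 0.13 against 0.0066 over all tested genes. Without control replicate 2 this changed: MALAT1 came to -0.051, GAS5 to -0.023, TUG1 to -0.016 and NEAT1 to 0.0057, and none of the 7 was called. The groups overlapped for all 7 members, whereas 22.8% of tested genes had groups without overlap.

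**Figure D3:**
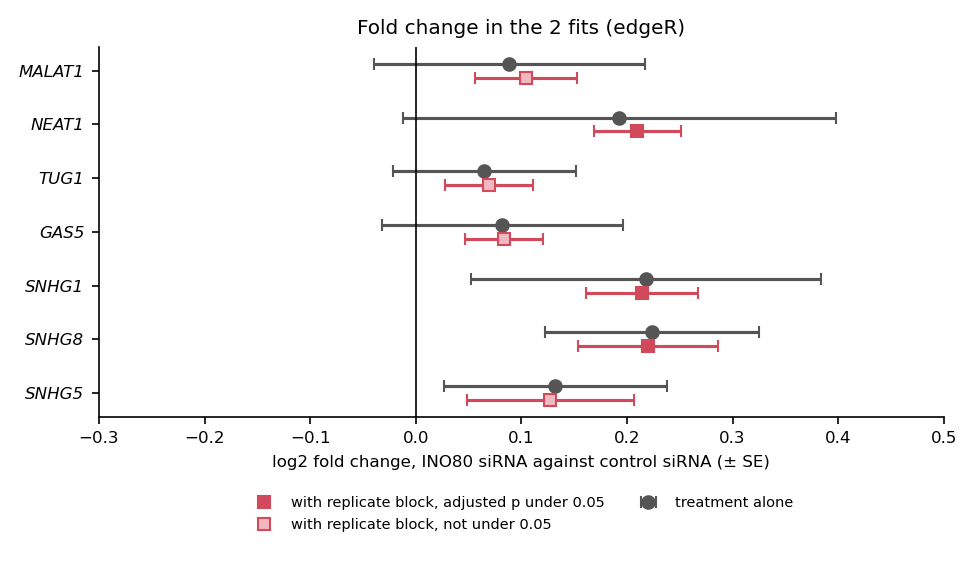
Log2 fold change of INO80 siRNA against control siRNA with its SE, from the fit with the treatment alone (circles) and the fit with the replicate block (squares, filled dark where the adjusted p was under 0.05). The estimates hardly move between the fits while the SE shrinks, and NEAT1, SNHG1 and SNHG8 are the dark squares.

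Libraries of the same replicate number deviated together across genes, so a blocked fit, with the replicate number as a term, is given beside the other. In the blocked fit NEAT1 rose by 0.21 ± 0.041 (SE) on the log2 scale with an adjusted p of 0.000388, SNHG1 by 0.21 ± 0.053 with 0.00367, and SNHG8 by 0.22 ± 0.066 with 0.0157, all in edgeR. These 3 of 7 members are 42.9%, read against 24.8% of all tested genes called in either direction and 11.4% called as higher. MALAT1 had 0.10 ± 0.048 (adjusted p 0.123), GAS5 0.08 ± 0.037 (0.103), SNHG5 0.13 ± 0.079 (0.263) and TUG1 0.07 ± 0.042 (0.245), none of which passed. In terms of fold, the 3 called RNAs were 1.14 to 1.17 times as high by the ratio of group means.

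The pairs differed in how much they carried. NEAT1 changed by 0.08, 0.33 and 0.23 on the log2 scale in pairs 1, 2 and 3, SNHG1 by 0.34, 0.23 and 0.08, and SNHG8 by 0.28, 0.16 and 0.22. Of the 7 members, 5 were higher in each of the 3 pairs, a pattern seen in 26.8% of tested genes. The exceptions were MALAT1, at -0.13, 0.31 and 0.14, and TUG1, at -0.02, 0.16 and 0.07, which were lower in pair 1. Without a pair, the blocked calls moved. NEAT1 and SNHG1 were called whichever pair was left out, with adjusted p of 2.26e-14 to 0.0302 and of 0.00252 to 0.0337. SNHG8 was no longer called without replicate 1 (adjusted p 0.0602) or without replicate 3 (0.0886), and MALAT1 and TUG1 were called without replicate 1 (9.18e-13 and 0.0199). These edgeR fits hold few libraries, and their p rest largely on a spread shared across genes. The size of their adjusted p thus does not measure how firmly a call holds. Under DESeq2 with the block NEAT1 alone was called, with an adjusted p of 0.00305, against 0.0604 for SNHG1 and 0.192 for SNHG8. With the total counts as the only scaling the blocked fit also called MALAT1 (adjusted p 0.0337).

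Replicates differed by more than the groups did for most of these RNAs. Replicate 2 against replicate 1 gave a log2 difference of -0.70 for NEAT1 and -0.52 for SNHG1, beside treatment differences of 0.21 for both. Tested as a term of its own in edgeR, the replicate number was called for 5 of 7 members, MALAT1 (adjusted p 0.000175), NEAT1, GAS5, SNHG1 and TUG1 (0.00379), and for 26.7% of tested genes. It was not called for SNHG8 (0.0505) or SNHG5 (0.19). Replicate 2 was the lowest library in both groups for 6 of 7 members, all but SNHG5, and for 16.0% of tested genes. What the replicate number stands for is not in the labels, and its part in these levels was not tested beyond this term.

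**Figure D4:**
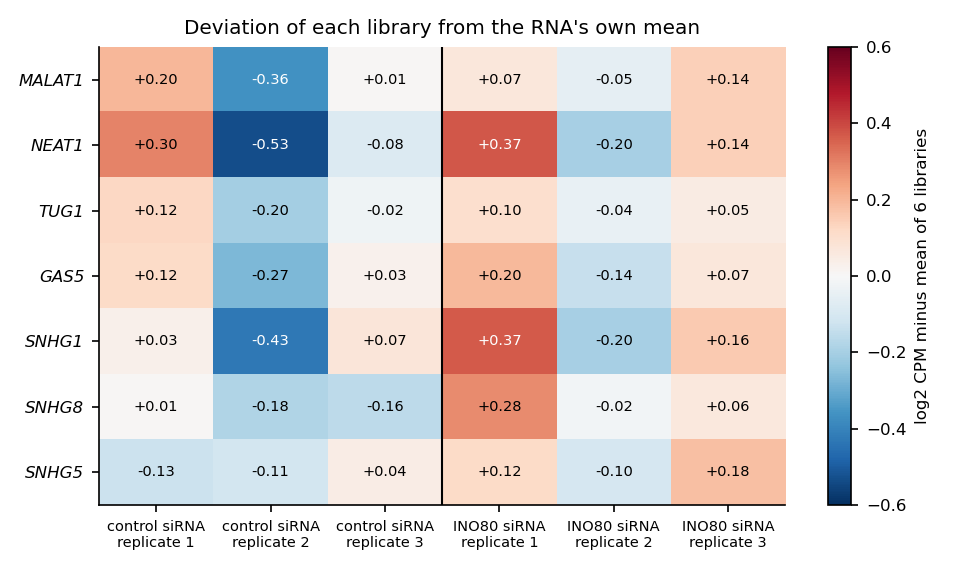
Difference of log2 CPM from the mean of 6 libraries for each RNA and library (colour and printed value, red high and blue low). Control replicate 2 is the lowest library for 6 of the 7 RNAs and INO80 siRNA replicate 2 is below 0 for all 7, whereas replicate 1 under INO80 siRNA is above 0 for all 7.

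The members' log2 CPM moved together over the 6 libraries. Pearson's r between 2 members ranged from 0.376 to 0.983 with a median of 0.791 over 21 pairs, and the highest was that of NEAT1 and TUG1. These values share the same 6 libraries and their scaling. Among 9736 tested genes with a mean of at least 10 CPM, the patterns most like MALAT1 were those of RBM5 (r = 0.982), an RNA-binding regulator of splicing, PRKAA2 (0.975), a catalytic subunit of AMP-activated kinase, and SFXN4 (0.972), a mitochondrial protein. Those most like NEAT1 were VMP1 (0.997), a membrane protein of autophagy, CHRNB1 (0.997), a receptor subunit, and UBE2G2 (0.996), a ubiquitin-conjugating enzyme. None of these 6 was called with the treatment alone, and with the block VMP1 (adjusted p 0.0386) and UBE2G2 (0.021) were, in edgeR. The 6 genes were picked for following MALAT1 or NEAT1 over the same libraries. A likeness in their calls thus follows largely from that choice.

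Among protein-coding genes beside the members, FRMD8, a regulator of membrane protein trafficking that lies 9249 bases from NEAT1, was called with the block, with a log2 fold change of 0.15 ± 0.053 (SE) and an adjusted p of 0.0428. Of 11 genes whose span overlaps a member 3 were tested, 0 were called with the treatment alone and 1 with the block, and 7 had no read. The called gene was ZBTB37, a zinc finger gene that overlaps GAS5 on the other strand. It had 25.7, 26.3 and 27.7 CPM with control siRNA and 30.7, 31.9 and 30.5 CPM with INO80 siRNA. Its groups did not overlap, and its log2 fold change of 0.22 had an adjusted p of 0.171 with the treatment alone and 0.012 with the block in edgeR. Reads in the overlap of ZBTB37 and GAS5 cannot be told apart without knowing the strand setting. The genes nearest to the hosts called with the block were SLC3A2, 132 bases from SNHG1, and PRSS12, 215 bases from SNHG8, each on the other strand. SLC3A2 had a blocked log2 fold change of 0.05 ± 0.048 (SE) and PRSS12 of 0.04 ± 0.072, and neither was called.

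**Figure D5:**
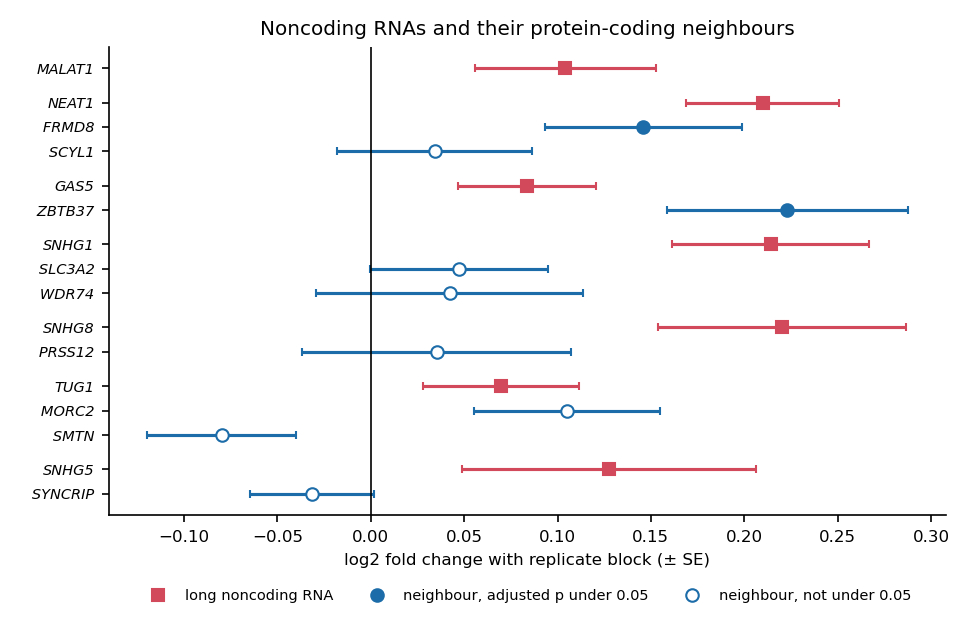
Blocked log2 fold change ± SE of the 7 RNAs (red squares) and of some of their tested protein-coding neighbours (blue circles, filled where the adjusted p was under 0.05), grouped by locus. FRMD8 at 0.15 and ZBTB37 at 0.22 lie on the same side as NEAT1 and GAS5, and they are the filled circles.

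The proteins of the bodies that hold MALAT1 and NEAT1 were read from lists. For these and the lists that follow, the share of all tested genes called was 1.75% with the treatment alone. With the block it was 24.8% in either direction and 11.4% as higher. Of 14 paraspeckle proteins 0 were called with the treatment alone, with a median log2 fold change of -0.04, and 3 were lower with the block. These were NUDT21 (228 ± 6.57 against 197 ± 16.3 CPM, SD), HNRNPH3 and DAZAP1, all RNA-processing factors. NONO and SFPQ, the core paraspeckle proteins, had log2 fold changes of 0.06 and -0.04 and were called in neither fit. Of 13 nuclear speckle and SR proteins 0 were called with the treatment alone, and SRSF5, SRSF6 and PNN were higher with the block, with blocked log2 fold changes of 0.19, 0.14 and 0.13.

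Other snoRNA hosts went in both directions. Of the 15 tested, 0 were called with the treatment alone, and the median log2 fold change was 0.12. With the block DANCR (22.9 ± 3.14 against 28.6 ± 5.07 CPM, SD) and SNHG3 were higher, and SNHG14 (80.3 ± 4.16 against 65.1 ± 3.22 CPM), SNHG16 (48.2 ± 2.46 against 39.2 ± 3.01 CPM) and SNHG17 were lower. SNHG14 and SNHG16 did not overlap between groups and had adjusted p of 0.0654 and 0.106 with the treatment alone in edgeR. Replicate 2 was the lowest in both groups for 9 of the 15. Of 11 proteins of the snoRNA-protein particles or their assembly 0 were called with the treatment alone. NOP56 and NAF1 were higher with the block, by log2 fold changes of 0.12 and 0.28.

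The nuclear RNA exosome trims snoRNAs, and nonsense-mediated decay removes many spliced host RNAs. Of 18 exosome subunits and cofactors, 2 fell with the treatment alone and the median log2 fold change was -0.12. EXOSC8 had 27.2 ± 1.26 CPM (SD) with control siRNA and 18.5 ± 0.707 CPM with INO80 siRNA, a log2 fold change of -0.56 ± 0.081 (SE) with an adjusted p of 0.0204 in edgeR. EXOSC2 had 46.4 ± 1.59 against 33.6 ± 2.33 CPM, a log2 fold change of -0.47 ± 0.075 with 0.0283. Neither overlapped between groups. With 1 library left out EXOSC8 was called in 1 of 6 fits (without INO80 siRNA replicate 1, adjusted p 0.0454 to 0.123 over the 6) and EXOSC2 in none (0.0514 to 0.135), and both stayed lower. With the block 8 were lower, among them EXOSC1 (-0.49) and SKIV2L2 (-0.31), the helicase that feeds the nuclear exosome, and 2 were higher, EXOSC9 (0.16) and RBM7 (0.32). Of 14 decay factors 0 were called with the treatment alone, and with the block SMG5 and SMG1 were lower and SMG8 higher.

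Among 1341 tested genes typed as long noncoding in GENCODE release 44, 3 were called with the treatment alone, 0.224%, and all were lower. The median log2 fold change in this fit was 0.00072. With the block 102 were called, 7.61%, of which 41 were higher and 61 lower. Of 19 tested RNAs outside the list that are named as long noncoding, 0 were called with the treatment alone. With the block MIR22HG and HCG18 were higher and LINC00657, MIR4435-1HG and LINC00998 lower. LINC00998 was not among the genes typed as long noncoding in GENCODE release 44. LINC00657, which binds Pumilio proteins, had the highest level per length of the ranked long noncoding genes at 97.8 FPKM. It had 558 ± 97.9 CPM (SD) with control siRNA and 490 ± 62.3 CPM with INO80 siRNA. The blocked log2 fold change was -0.18 ± 0.033 (SE).

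RNAs that usually lack a poly(A) tail, histone genes among them, were also listed. Whether their reads here came from transcripts with or without a tail was not measured. Of 9 tested, 0 were called with the treatment alone and 3 were higher with the block, HIST1H2BK (blocked log2 fold change 0.44), HIST1H2AC (0.64) and RN7SL1 (0.27). All 20 listed genes found, tested or not, summed to 38.1 to 51.8 CPM with control siRNA and 41.4 to 64.3 CPM with INO80 siRNA. The part of this in the levels of the members was not tested.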

How the data were processed

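RNA was poly(A)-selected and sequenced from 3 control siRNA and 3 INO80 siRNA libraries of HK-2 cells. The authors deposited 1 table of raw read counts per gene and of FPKM values, which divide the count by exonic length and library total. The submitters' processing notes name HISAT2 2.0.1, HTSeq and hg19. The paper's methods name ELAND and hg38, and the table's coordinates are of GRCh37. Groups came from the sample labels, and 0 columns of per-sample values were left out.

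Counts were analysed in R 4.3.3 with edgeR 4.0.16 (filterByExpr, TMM, quasi-likelihood test, treatment alone), and p-values were adjusted over 15343 genes by the Benjamini-Hochberg method. The fit was tested on simulated data. Same-numbered libraries of the 2 groups correlated in their deviations from the group means at r = 0.581, 0.365 and 0.360 across genes, and differently numbered ones at 0.152 or less, so the numbers were taken to pair the libraries. The alternatives were the replicate block, median-ratio or total-count scaling, no filter, DESeq2 1.42.0, limma 3.58.1 on log2(FPKM + 0.1), and each library left out. Variants of the blocked fit, the replicate term and canonical lengths were chosen after seeing the data.

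The members and lists were chosen with earlier results of these data known. Named genes were the members, INO80, flanking or overlapping genes that were called, up to 4 genes per list with the smallest p, and the patterns most like MALAT1 and NEAT1. Others named with the block, and nearest neighbours of the called hosts, were chosen after their values were seen. A count of 0 allows up to 3 counts. Types and canonical lengths came from GENCODE release 44, and 51996 of 57905 gene IDs matched. Outliers were not tested in groups of 3. Some genes are not reported here.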

Additional observations from a re-analysis of the deposited data

How the results depend on the processing

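The replicate block changed the calls most. It raised the number of members called from 0 to 3 and of all genes called from 268 to 3798. Of all genes, 708 were called without a filter on low counts, 610 by DESeq2, 76 by limma on FPKM, and 18 to 146 with 1 library left out. The 5 alternatives on all libraries without the block kept all 35 member values higher and called none. With 1 library left out, 39 of 42 were higher and none was called. MALAT1 ranged from -0.051 to 0.22, GAS5 from -0.023 to 0.17 and TUG1 from -0.016 to 0.15 on the log2 scale, and the 3 lower values all came without control siRNA replicate 2. The cause was not tested. Among paired fits, chosen after seeing the data, DESeq2 called 1 member and 1691 genes. Leaving out a pair gave 2 to 4 members and 2251 to 3978 genes, the lowest without replicate 3. Those fits hold few libraries, and their p rest largely on a spread shared across genes. All 42 member values of the 6 other blocked fits were higher and 17 were called, NEAT1 in each. Median-ratio or total-count scaling with the block called 3 and 4 members. The 7 detected RNAs had 282 to 10413 reads per library, whereas H19, MEG3 and KCNQ1OT1 are limited by their few reads.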

Other observations

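The 3 long noncoding genes called with the treatment alone were outside the list, and they are named after their values were seen. RP11-438N16.1 had 9.27, 8.86 and 8.33 CPM with control siRNA and 3.53, 4.76 and 3.34 CPM with INO80 siRNA, a log2 fold change of -1.18 ± 0.168 (SE) with an adjusted p of 0.0192 in edgeR. RP11-149I23.3 had 11.6, 10.96 and 11.6 CPM against 6.86, 6.998 and 5.90 CPM, a log2 fold change of -0.79 ± 0.121 with 0.0236. RP11-418J17.1 had 24.3, 22.5 and 18.7 CPM against 14.9, 12.8 and 10.98 CPM, a log2 fold change of -0.76 ± 0.142 with 0.0425. In each of them every INO80 siRNA library lay below every control library. With 1 library left out they were called in 2, 1 and 1 of 6 fits in that order, with adjusted p of 0.0307 to 0.108, 0.0451 to 0.123 and 0.0375 to 0.170 in edgeR, in each case without INO80 siRNA replicate 1, and for RP11-438N16.1 also without INO80 siRNA replicate 2. All 3 stayed lower in every one of those fits.

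CDKN1C, a cell cycle inhibitor imprinted beside KCNQ1OT1, differed far more between replicate numbers than between treatments. It had 41.7, 115 and 75.1 CPM in control replicates 1, 2 and 3 and 31.98, 125 and 95.3 CPM with INO80 siRNA, with a log2 fold change of 0.12 ± 0.475 (SE) and an adjusted p of 0.933 in edgeR. Its order over the replicates is the reverse of that of NEAT1, since replicate 1 was lowest and replicate 2 highest in both groups.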
